A study of Mus musculus with 21 samples.

Results

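This comparison sets neurons of a dopaminergic mouse embryonic stem cell line against neurons of a serotonergic line after the same patterning treatment. The dopaminergic cells came from the NesE-Lmx1a line (the Lmx1a line below) and the serotonergic cells from the NesE-Nkx2.2 line (the Nkx2.2 line). Both lines were differentiated for 10 days with sonic hedgehog (SHH) and fibroblast growth factor 8 (FGF8), and each gave 3 biological replicates, so the comparison uses 6 of the 21 arrays analysed here. The arrays were chosen by line, day and treatment alone, and all 18193 named genes were compared, each through its most variable probe set on the 21 arrays. The labels call the Lmx1a line cells immature mesencephalic dopamine neurons and the Nkx2.2 line cells serotonergic neurons of the rostral hindbrain. Wild-type neurons at day 10, whose titles also name SHH and FGF8, were the background (n = 3). The other arrays entered the fit as well. They held the Lmx1a line at day 14 with SHH and FGF8, and the Nkx2.2 line at day 10 with SHH and retinoic acid. The rest were somatic motor neurons and wild-type neurons, both at day 8 with SHH and retinoic acid. Each line carries a transcription factor under a nestin enhancer (NesE), which is active in neural progenitors, whereas the RNA came from purified post-mitotic neurons. Whether the probe sets of Lmx1a and Nkx2-2 read the introduced gene, the endogenous gene or both is not stated, and neither is the number of clones behind a line.

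Midbrain dopamine neurons arise from the floor plate of the ventral midbrain, where the LIM homeodomain factor LMX1A acts together with FOXA1, FOXA2 and OTX2. Serotonergic neurons arise more caudally, from ventral hindbrain progenitors that express the homeodomain factor NKX2-2, and depend on GATA2 and GATA3 as they mature. SHH gives cells a ventral character in both places, and FGF8 is the signal of the boundary between midbrain and hindbrain. Both kinds of neuron make a monoamine, so they share the decarboxylase DDC, the vesicular transporter SLC18A2 and the supply of the cofactor tetrahydrobiopterin, and differ in the hydroxylase (TH or TPH2) and the reuptake transporter (SLC6A3 or SLC6A4).

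Values are log2 signals that stand relative to each probe set's own median over the arrays, so 0 is the typical level of that probe set and levels of different genes cannot be compared. Fold changes are Lmx1a line minus Nkx2.2 line on the log2 scale, with the SE of a limma fit over all 21 arrays. A gene was called at a Benjamini-Hochberg adjusted p under 0.05 with a change of at least 1 log2 unit, and "rose" and "fell" are used only of called genes. Because RNA was measured in bulk, fewer cells of a type and less RNA per cell cannot be told apart.

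The 6 arrays did not stand equally far apart. Over all genes, the Lmx1a line replicates correlated with each other at 0.405, 0.426 and 0.582. Among the Nkx2.2 line replicates, 1 and 2 correlated at 0.643, but replicate 3 reached 0.405 and 0.277 with them and 0.19, 0.125 and 0.263 with the Lmx1a line arrays, so it lay partly towards the other line. The bioC and labelling control probe sets also followed the lines. The bioC hybridisation controls lay between -2.754 and -1.611 in the Lmx1a line arrays and between -0.149 and 0.327 in the Nkx2.2 line arrays. The labelling controls lay between -3.834 and -3.679 in the Lmx1a line arrays, against -1.115 to 1.428 in the Nkx2.2 line arrays. Within these 6 arrays, the line cannot be told apart from the bioC and labelling signals. The other hybridisation controls set a single array apart. They were at -2.459 in Lmx1a line replicate 1 and between -0.186 and 0.145 in the rest of the 6. The labels name no processing batch.

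Of the 18193 genes, 400 rose in the Lmx1a line (2.2%) and 523 fell (2.87%), 923 in all (5.07%). These shares of all genes are the background for the counts within gene lists below. The arrays of the lines did not overlap for 1593 genes on the higher side (8.76%) and 2098 on the lower side (11.5%). The median log2 fold change over all genes was 0.03. The number of higher calls depended on single arrays. It was 750, 173 and 239 without Lmx1a line replicate 1, 2 or 3, and 175, 166 and 457 without Nkx2.2 line replicate 1, 2 or 3. The number of lower calls stayed between 359 and 636 except without Nkx2.2 line replicate 1, where it was 293. With the bioC split of the arrays as a covariate, which rests on the other groups, 142 genes were higher and 348 lower. With the labelling controls as a covariate, chosen after seeing the data, 4 were higher and 13 lower.

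**Figure D1:**
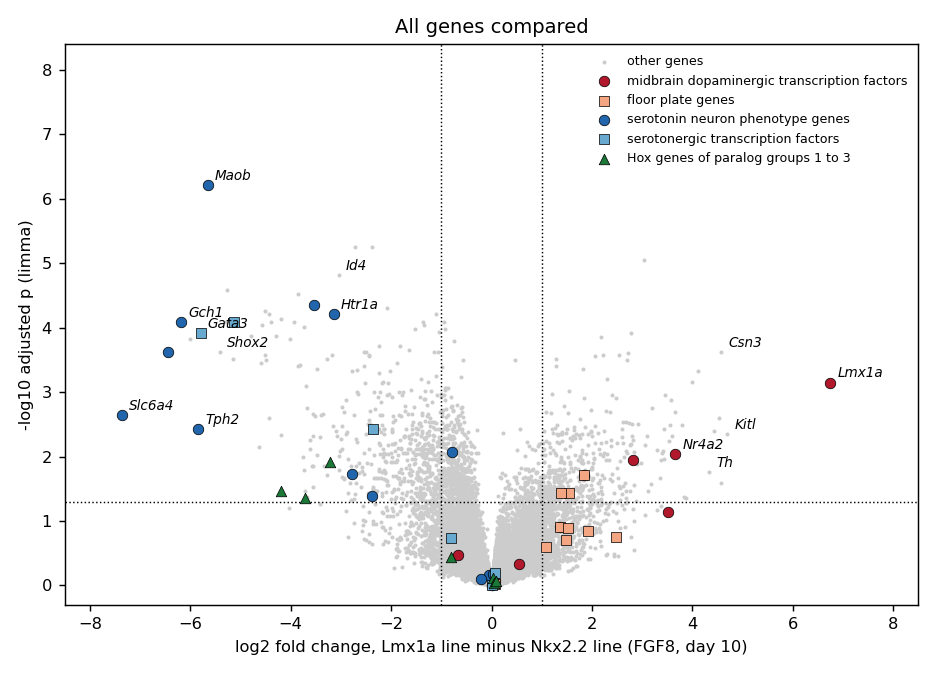
Each point is 1 of the 18193 genes, with the log2 fold change (Lmx1a line minus Nkx2.2 line) on the x axis and -log10 of the limma adjusted p on the y axis. Dotted lines mark a change of 1 log2 unit and an adjusted p of 0.05. Serotonin genes such as Maob, Slc6a4 and Gch1 lie far to the left, and Lmx1a lies furthest to the right.

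The line genes and markers separated the lines. Lmx1a itself, the transcription factor the dopaminergic line is named after, had centred signals of 8.19, 8.06 and 8.33 in the Lmx1a line arrays, against 1.12, 0.00 and 3.23 in the Nkx2.2 line arrays. Its log2 fold change was 6.74 ± 0.95 (SE, limma adjusted p = 0.00072), the largest rise of the comparison. The Lmx1a line arrays lay within a narrow band far above all Nkx2.2 line arrays, and wild type averaged 2.62 ± 0.62 (SD, n = 3). Nkx2-2, which the other line is named after, had -2.63, -1.71 and -0.59 in the Lmx1a line, against 0.96, 1.08 and 0.13 in the Nkx2.2 line. It was lower by 2.37 ± 0.42 log2 units (log2 fold change -2.37, adjusted p = 0.00372), with no overlap. Lmx1b, the paralogue found in both dopaminergic and serotonergic neurons, averaged 0.97 ± 0.67 in the Lmx1a line and 0.96 ± 1.39 in the Nkx2.2 line (SD, n = 3 each; log2 fold change 0.01 ± 0.48, SE, limma adjusted p = 0.993).

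**Figure D2:**
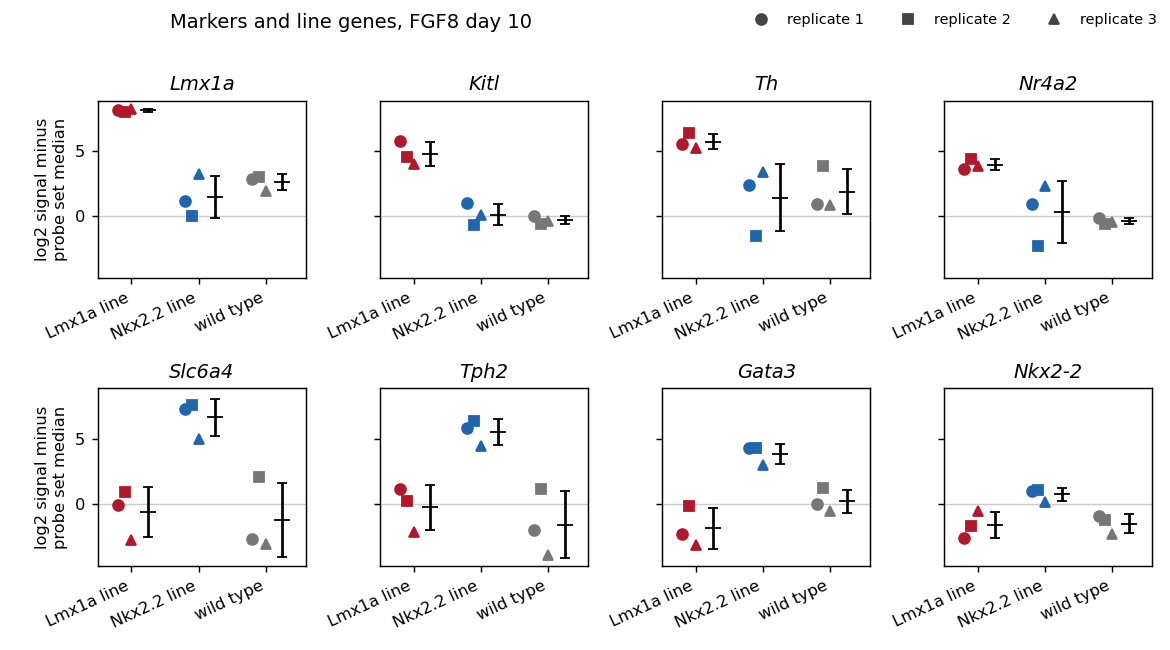
Centred log2 signal of 8 genes in the Lmx1a line, the Nkx2.2 line and wild type at day 10, with a symbol for each replicate and a black bar for the mean ± SD (n = 3). Lmx1a, Kitl, Th and Nr4a2 are highest in the Lmx1a line, and Slc6a4, Tph2, Gata3 and Nkx2-2 in the Nkx2.2 line.

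Gata3, the zinc finger factor that maintains serotonin synthesis genes, had -2.33, -0.17 and -3.24 in the Lmx1a line, against 4.31, 4.32 and 3.01 in the Nkx2.2 line. Its log2 fold change was -5.79 ± 0.65 (SE, limma adjusted p = 0.000123). Gata2, which acts upstream of Gata3 in rostral hindbrain, had -1.96, -0.33 and -2.19 in the Lmx1a line, against 3.69, 4.46 and 2.74 in the Nkx2.2 line (log2 fold change -5.12 ± 0.54, adjusted p = 8.32e-05). In neither gene did an array of one line reach the range of the other. Of 8 serotonergic factors listed, 6 were tested, and the serotonergic marker Fev was not among the 6. Of those tested, 3 fell, Gata2, Gata3 and Nkx2-2, none rose, and the median was -1.59. The same count of 3 was found with each array left out in turn and with the bioC split as a covariate, but it was 0 with only the 6 arrays in the fit and 0 with the labelling controls as a covariate. Insm1, a zinc finger factor of newborn monoaminergic neurons, was not called (-0.81 ± 0.35, adjusted p = 0.185).

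Genes for making, storing and removing serotonin formed the group with the lowest median of the lists examined. Of 13 tested, 9 fell, none rose, and the median log2 fold change was -3.15, against 0.03 over all genes. Slc6a4, the serotonin reuptake transporter, had -0.06, 0.93 and -2.82 in the Lmx1a line, against 7.39, 7.67 and 5.06 in the Nkx2.2 line, and a log2 fold change of -7.36 ± 1.22 (SE, limma adjusted p = 0.00231), the largest fall. Tph2, the neuronal tryptophan hydroxylase that limits serotonin synthesis, had 1.16, 0.25 and -2.20 in the Lmx1a line, against 5.85, 6.40 and 4.48 in the Nkx2.2 line (-5.84 ± 1.05, adjusted p = 0.00379). In both genes, replicate 3 was the lowest array of each line, and the lines did not overlap. Tph1, the peripheral hydroxylase, stayed near 0 on all 6 arrays, with a highest value of 0.40.

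Gch1, the first enzyme of tetrahydrobiopterin synthesis, had -0.15, 0.00 and -1.22 in the Lmx1a line, against 6.33, 6.37 and 4.50 in the Nkx2.2 line (-6.19 ± 0.65, SE, limma adjusted p = 8.32e-05). Gchfr, the feedback regulator of that enzyme, had -0.04, 0.80 and -0.95 in the Lmx1a line, against 7.16, 7.46 and 4.54 in the Nkx2.2 line (-6.45 ± 0.79, adjusted p = 0.000242). Nkx2.2 line replicates 1 and 2 were nearly level and replicate 3 lower for both, and the lines did not overlap. Maob, the monoamine oxidase typical of serotonergic neurons, lay at 0.10, 0.03 and -0.00 in the Lmx1a line, against 6.80, 5.64 and 4.63 in the Nkx2.2 line (-5.65 ± 0.34, adjusted p = 6.18e-07). Wild type averaged 0.01 ± 0.05 (SD, n = 3), so Maob lay near the probe set median in the Lmx1a line and wild type alike. Maoa, the other oxidase, was lower by less (-2.39 ± 0.68, adjusted p = 0.0414), and its call was lost in 4 of the 6 fits that left out 1 array, those without Lmx1a line replicate 2 or 3 or Nkx2.2 line replicate 1 or 2 (highest adjusted p = 0.146).

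Slc18a2 and Ddc, which both kinds of monoamine neuron use, also fell. Slc18a2, the transporter that loads monoamines into vesicles, had 0.78, 0.38 and 0.44 in the Lmx1a line, against 4.47, 4.42 and 3.29 in the Nkx2.2 line (-3.53 ± 0.33, SE, limma adjusted p = 4.53e-05). Ddc, the decarboxylase that makes dopamine and serotonin, had 1.30, 1.20 and 0.00 in the Lmx1a line, against 3.79, 4.16 and 2.92 in the Nkx2.2 line (-2.79 ± 0.67, adjusted p = 0.0187). Neither gene's arrays overlapped, although the Ddc call was lost without Lmx1a line replicate 3 or Nkx2.2 line replicate 1 or 2 (highest adjusted p = 0.081). Htr1a, the serotonin autoreceptor, had -0.83, -0.38 and -0.56 in the Lmx1a line, against 2.97, 2.24 and 2.46 in the Nkx2.2 line (-3.15 ± 0.31, adjusted p = 6.23e-05). The related autoreceptor Htr1b did not pass the test, with 2.85 ± 1.12 in the Lmx1a line and 3.06 ± 0.05 in the Nkx2.2 line (SD, n = 3 each; limma adjusted p = 0.799), while wild type averaged -0.98. Qdpr, which recycles the cofactor, had an adjusted p of 0.00843 with a change of -0.78 ± 0.16, under the fold threshold. All 9 calls of this group were also made with the bioC split as a covariate, against 1 with the labelling controls as a covariate. Between 7 and 9 were made with single arrays left out, 8 with the replicate number as a block and 4 with only the 6 arrays in the fit.

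**Figure D3:**
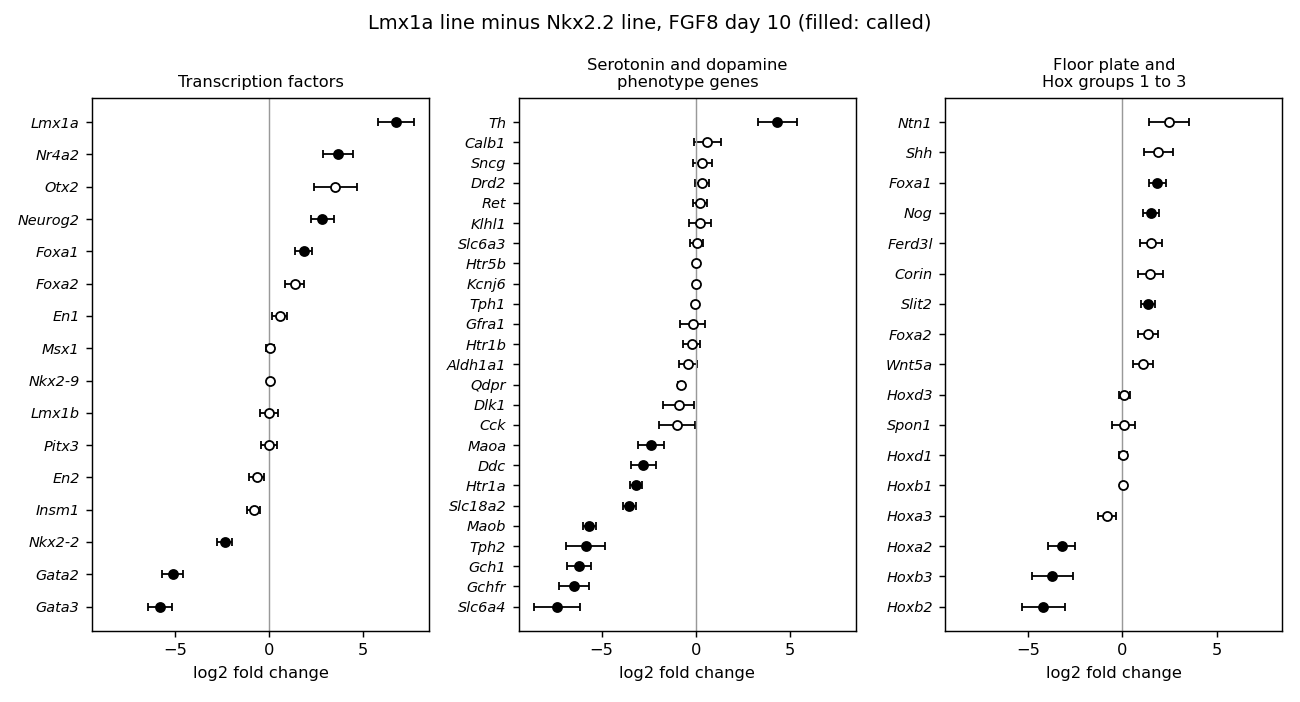
Log2 fold changes (Lmx1a line minus Nkx2.2 line) with the SE of the fit for transcription factors, monoamine neuron genes, and floor plate and Hox genes. Filled points were called. The monoamine panel runs between Th at 4.33 and Slc6a4 at -7.36, and all 9 serotonin genes that fell lie left of 0.

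Of 11 midbrain dopaminergic transcription factors tested, 4 rose and none fell, with a median of 1.36. Besides Lmx1a these were Nr4a2, Neurog2 and Foxa1. Nr4a2 (NURR1), the nuclear receptor needed for the dopaminergic phenotype, had 3.66, 4.44 and 3.83 in the Lmx1a line, against 0.94, -2.32 and 2.34 in the Nkx2.2 line (3.66 ± 0.77, SE, limma adjusted p = 0.00922). Neurog2, the proneural factor of midbrain dopaminergic progenitors, had 2.36, 0.73 and 2.79 in the Lmx1a line, against 0.31, -2.38 and -0.51 in the Nkx2.2 line (2.82 ± 0.62, adjusted p = 0.0114). Foxa1, a forkhead factor of the floor plate, had 2.64, 2.27 and 1.67 in the Lmx1a line, against 0.61, -0.49 and 0.92 in the Nkx2.2 line (1.85 ± 0.45, adjusted p = 0.0194). The lines did not overlap for any of them, and the Nkx2.2 line arrays were more spread than those of the Lmx1a line for Nr4a2, with replicate 3 nearest to the Lmx1a line.

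Several dopaminergic factors did not pass the test. Foxa2 had a log2 fold change of 1.36 ± 0.52 (SE, limma adjusted p = 0.126) and En1, the midbrain engrailed factor, of 0.55 ± 0.41 (adjusted p = 0.472). Otx2, which sets the midbrain side of the boundary, had 7.07, 7.25 and 7.48 in the Lmx1a line, against 4.95, 0.00 and 6.33 in the Nkx2.2 line (3.51 ± 1.15, adjusted p = 0.0728). Every Lmx1a line array lay above every Nkx2.2 line array for Otx2, but Nkx2.2 line replicate 2 stood far below replicates 1 and 3. Pitx3, a late dopaminergic factor, was near 0 in both lines (0.08 ± 0.03 in the Lmx1a line and 0.07 ± 0.11 in the Nkx2.2 line, SD, n = 3 each). The count of 4 was between 2 and 5 with single arrays left out, 2 without Nkx2.2 line replicate 2, where Neurog2 had an adjusted p of 0.0523, and with the bioC split as a covariate only Lmx1a was called.

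Among 15 genes of the dopamine neuron phenotype tested, Th alone rose, 3 fell and the median was 0.01. Th, tyrosine hydroxylase, had 5.55, 6.41 and 5.30 in the Lmx1a line, against 2.38, -1.55 and 3.43 in the Nkx2.2 line, with a log2 fold change of 4.33 ± 1.03 (SE, limma adjusted p = 0.0175). All Lmx1a line arrays were higher, while the Nkx2.2 line arrays were spread over about 5 log2 units, and wild type averaged 1.89 ± 1.74 (SD, n = 3). The Th call was lost without Lmx1a line replicate 2 or Nkx2.2 line replicate 2 (highest adjusted p = 0.0609) and with the bioC split as a covariate (adjusted p = 0.235). The 3 that fell were Gch1, Ddc and Slc18a2, which serotonergic neurons share. Slc6a3, the dopamine reuptake transporter, lay at 0.13, 0.04 and -0.02 in the Lmx1a line, against 0.03, 0.00 and -0.02 in the Nkx2.2 line, and was not called (0.05 ± 0.33, adjusted p = 0.946). Drd2, Ret, Aldh1a1 and Calb1, further markers of dopamine neurons, were not called (log2 fold changes 0.33, 0.25, -0.42 and 0.62).

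The promoters of the hydroxylases, of Lmx1a and of Slc6a4 are shown because these genes carry the contrast between the lines. Each line gives the 140 bases before the annotated start in 5′ to 3′ direction (RefSeq, GRCm38.p6), with matches in capitals to the GATA motif (AGATAA with its variant AGATAG, as well as TGATAA with its variant TGATAG) or to the NK2 motif (TNAAGTG), each searched on both strands. The positions are chr1:167689418-167689557 (plus strand) for Lmx1a, chr7:142899996-142900135 (minus) for Th, chr11:76998457-76998596 (plus) for Slc6a4 and chr10:115185023-115185162 (minus) for Tph2. The start used is the outer end of the RefSeq gene for Th, Slc6a4 and Tph2, but not for Lmx1a.
Lmx1a: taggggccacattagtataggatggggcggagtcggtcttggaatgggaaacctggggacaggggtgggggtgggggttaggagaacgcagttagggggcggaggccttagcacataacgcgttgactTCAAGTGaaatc
Th: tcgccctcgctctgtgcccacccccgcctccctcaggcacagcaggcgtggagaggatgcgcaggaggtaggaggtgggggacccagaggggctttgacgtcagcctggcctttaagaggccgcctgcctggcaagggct
Slc6a4: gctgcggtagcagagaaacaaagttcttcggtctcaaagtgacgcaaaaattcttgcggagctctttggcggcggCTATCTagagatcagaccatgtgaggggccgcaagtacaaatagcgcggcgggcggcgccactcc
Tph2: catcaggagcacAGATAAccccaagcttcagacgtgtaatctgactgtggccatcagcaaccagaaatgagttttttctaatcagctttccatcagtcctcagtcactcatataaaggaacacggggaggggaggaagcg
Slc6a4 and Tph2 each held a GATA match and Lmx1a held an NK2 match, whereas Th held none of these letters in the window. Over 250 bases before the start, a GATA match was found in 34 of 327 genes that rose and had a window (10.4%), in 77 of 417 that fell (18.5%) and in 2920 of 14368 genes tested (20.3%). The NK2 match was found in 6.42% of genes that rose, 9.35% of genes that fell and 8.36% of genes tested. The motif TAATTA, also searched, was found in 1.22%, 1.92% and 3.09%. The GATA share was lower among genes that rose than among genes that fell, and both shares were below that of all genes tested. No test was made of these shares.

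Of 10 floor plate genes tested, 3 rose (Foxa1, Nog and Slit2), none fell, and the median was 1.5. Nog, a secreted BMP inhibitor, rose by 1.54 ± 0.43 (SE, limma adjusted p = 0.0366) and Slit2, a midline axon repellent, by 1.37 ± 0.38 (adjusted p = 0.0364). Shh, the ligand of the floor plate, had 3.49, 2.04 and 1.84 in the Lmx1a line, against 0.98, 0.17 and 0.46 in the Nkx2.2 line (1.92 ± 0.76, adjusted p = 0.141), without overlap but not called. Its second probe set, with a smaller change, was called in a fit of all probe sets (1.24, adjusted p = 0.0257). Corin, a surface protease of the floor plate, had 4.70, 3.31 and 3.70 in the Lmx1a line, against 3.67, 1.68 and 1.90 in the Nkx2.2 line (1.49 ± 0.66, adjusted p = 0.197). Wild type averaged below both lines for Foxa2 (-3.23 ± 0.77) and Shh (-1.64 ± 1.04; SD, n = 3). With single arrays left out, the count of 3 was between 1 and 2, and with the bioC split as a covariate it was 0.

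Hoxa2, Hoxb2 and Hoxb3, which pattern the hindbrain, were the 3 of 7 Hox genes of paralog groups 1 to 3 that fell. Hoxb2 had -6.85, -6.91 and -6.63 in the Lmx1a line, against -1.06, 0.00 and -6.77 in the Nkx2.2 line (-4.19 ± 1.15, SE, limma adjusted p = 0.0343). Hoxb3 had -5.38, -4.38 and -5.39 in the Lmx1a line, against -0.12, 0.86 and -4.75 in the Nkx2.2 line (-3.71 ± 1.08, adjusted p = 0.0446). Nkx2.2 line replicate 3 lay within the range of the Lmx1a line for both, so the lines overlapped. Hoxa2 had -4.03, -4.12 and -4.14 in the Lmx1a line, against -0.04, 0.82 and -3.39 in the Nkx2.2 line (-3.22 ± 0.72, adjusted p = 0.012), so replicate 3 stayed just above the Lmx1a line. The Hoxb2 and Hoxb3 calls were lost in every fit that left out 1 array except the fit without Nkx2.2 line replicate 3, and Hoxa2 was lost without Nkx2.2 line replicate 1 or 2 (highest adjusted p = 0.0655). None of the 3 was called with the bioC split as a covariate.

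Meis2, a TALE homeodomain partner of Hox proteins, had -5.34, -4.40 and -4.00 in the Lmx1a line, against -1.81, 1.20 and -1.93 in the Nkx2.2 line (-3.74 ± 0.87, SE, limma adjusted p = 0.0162). It was the only called gene among 12 midbrain and isthmus genes, and the call was lost without Nkx2.2 line replicate 2 (adjusted p = 0.0765). Rarb, a retinoic acid receptor and itself a retinoic acid target, fell by 3.62 ± 0.74 (log2 fold change -3.62, adjusted p = 0.00764), the single call among 9 retinoic acid genes. Dmrta2, a DM-domain factor of the ventral midbrain and telencephalon, ran the other way. It had 5.64, 6.97 and 6.26 in the Lmx1a line, against 2.79, -1.11 and 3.50 in the Nkx2.2 line (4.56 ± 1.17, adjusted p = 0.0254). As with Otx2, Nkx2.2 line replicate 2 was lowest and replicate 3 nearest to the Lmx1a line, and the Dmrta2 call was lost without Lmx1a line replicate 2 or 3 or Nkx2.2 line replicate 2 (highest adjusted p = 0.119). None of 16 Hox genes of paralog groups 4 to 9 was called (median 0.03).

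**Figure D4:**
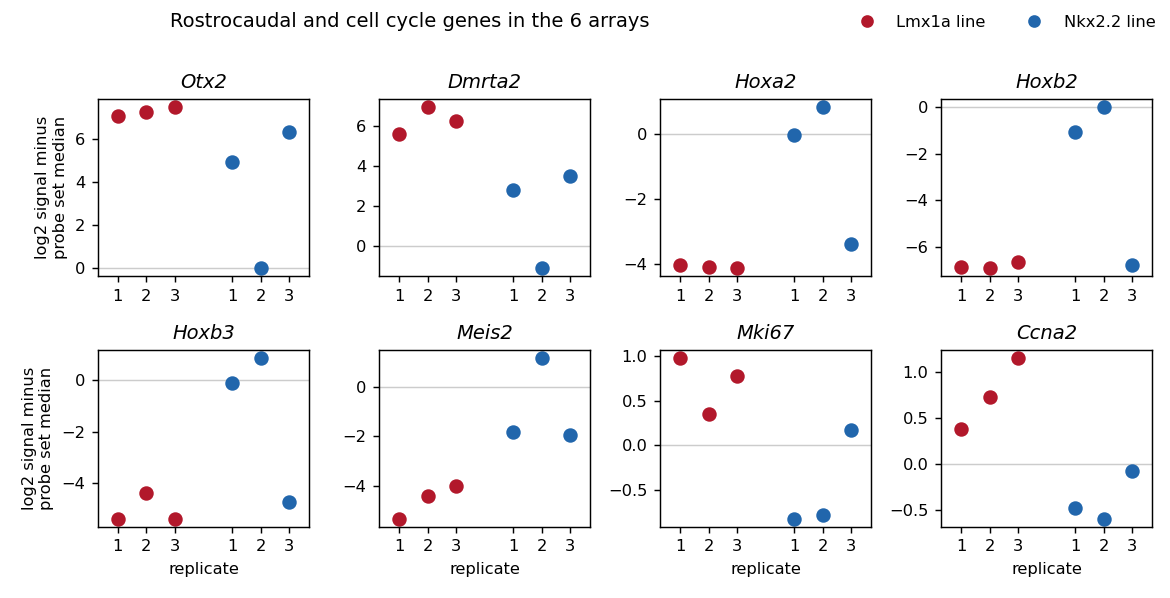
Centred log2 signal of 8 genes on each of the 6 arrays, Lmx1a line left and Nkx2.2 line right, each panel with its own y axis. Nkx2.2 line replicate 3 lies near the Lmx1a line for Hoxa2, Hoxb2 and Hoxb3, and Nkx2.2 line replicate 2 lies lowest for Otx2 and Dmrta2.

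Nkx2.2 line replicate 3 stood nearer to the Lmx1a line in general. It was the Nkx2.2 line array closest to the Lmx1a line mean for 236 of the 400 genes that rose (59.0%) and for 362 of the 523 that fell (69.2%). On the other side, Lmx1a line replicate 1 was closest to the Nkx2.2 line mean for 286 of the 400 genes that rose (71.5%). For the genes that fell this was so for only 159 of 523 (30.4%), the fewest of the Lmx1a line arrays. The shares over all genes were not worked out. Lmx1a line replicate 1 was also the array with other hybridisation controls at -2.459. Without Nkx2.2 line replicate 3, 457 genes were higher and 636 lower. Nkx2.2 line replicate 3 also had the lowest labelling control signal of its line.

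Besides Lmx1a, Dmrta2 and Th, the 12 largest rises without overlap were genes of various roles. Kitl, the ligand of the KIT receptor, had 5.81, 4.57 and 4.01 in the Lmx1a line, against 0.97, -0.72 and 0.06 in the Nkx2.2 line (4.69 ± 0.87, SE, limma adjusted p = 0.00449). Csn3, kappa casein, had 4.68, 3.25 and 5.77 in the Lmx1a line, against 0.04, 0.00 and -0.02 in the Nkx2.2 line (4.56 ± 0.55, adjusted p = 0.000242). C1ql1, a secreted synaptic organiser, had 2.75, 5.54 and 3.54 in the Lmx1a line, against 0.00, -0.27 and -0.20 in the Nkx2.2 line (4.10 ± 0.55, adjusted p = 0.000464). For all 3 genes the Nkx2.2 line arrays lay close to the probe set median and the Lmx1a line arrays far above it.

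The others of these 12 were Ppfibp2, a liprin (4.53 ± 0.76, SE), Pcp4l1, a calmodulin-binding protein (4.43 ± 0.81), Syt13, a synaptotagmin (3.98 ± 0.56), Stk26, a kinase (3.87 ± 1.12), Cldn9, a claudin (3.83 ± 1.10), and Frem1, an extracellular matrix protein (3.79 ± 0.66). Of the 12, the calls of Dmrta2, Th, Stk26 and Cldn9 were lost with at least 1 array left out, those of Stk26 and Cldn9 in 5 and 4 of 6 such fits (highest limma adjusted p = 0.195 for Stk26). Kitl's receptor Kit was not called (-0.29, adjusted p = 0.728).

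The 12 largest falls without overlap were all called with each array left out in turn and with the bioC split as a covariate, but with the labelling controls as a covariate only Maob was. Beside the 7 serotonin and GATA genes above they were Ptger3, Shox2, Nwd2, Cryba2 and Penk. Ptger3, a prostaglandin E receptor, had -0.03, 0.16 and -1.33 in the Lmx1a line, against 6.15, 6.99 and 3.71 in the Nkx2.2 line (-6.01 ± 0.69, SE, limma adjusted p = 0.000149). Shox2, a homeodomain factor, had -3.11, -1.49 and -2.29 in the Lmx1a line, against 3.47, 3.90 and 1.96 in the Nkx2.2 line (-5.41 ± 0.65, adjusted p = 0.000242). Cryba2, a crystallin, had 0.07, 0.01 and -0.06 in the Lmx1a line, against 5.55, 6.24 and 4.0 in the Nkx2.2 line (-5.26 ± 0.46, adjusted p = 2.57e-05). Replicates 1 and 2 of the Nkx2.2 line were above replicate 3 in each of these. Nwd2 fell by 5.28 ± 0.56 (log2 fold change -5.28, adjusted p = 8.32e-05).

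Of 18 neuropeptide genes tested, Penk, Nts and Vip fell, none rose, and the median was -0.31, where 2.87% of all genes fell. Penk, the enkephalin precursor, had -1.15, -2.54 and -2.26 in the Lmx1a line, against 4.18, 2.91 and 2.44 in the Nkx2.2 line (-5.16 ± 0.65, SE, limma adjusted p = 0.000312). Vip, vasoactive intestinal peptide, had -0.33, -0.81 and -0.89 in the Lmx1a line, against 1.64, 2.68 and 1.64 in the Nkx2.2 line (-2.66 ± 0.39, adjusted p = 0.00106). Nts, neurotensin, changed by -3.28 ± 0.79 (adjusted p = 0.0191), and its call was lost in 4 of 6 fits with 1 array left out (highest adjusted p = 0.0957). The lines did not overlap for Penk and Vip.

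Slc17a6, the vesicular glutamate transporter VGLUT2, had 2.51, 2.92 and 2.98 in the Lmx1a line, against 0.00, -3.18 and 2.06 in the Nkx2.2 line (3.18 ± 0.82, SE, limma adjusted p = 0.0266). Gad1, the GABA-synthesising enzyme, had 0.00, -1.47 and 2.81 in the Lmx1a line, against 2.98, 2.76 and 4.03 in the Nkx2.2 line (-2.81 ± 0.83, adjusted p = 0.048). Slc32a1, the vesicular GABA transporter, had -0.25, -0.27 and 2.69 in the Lmx1a line, against 3.05, 2.89 and 4.0 in the Nkx2.2 line (-2.60 ± 0.69, adjusted p = 0.0298). Lmx1a line replicate 3 was high for both GABA genes and overlapped the Nkx2.2 line for Gad1. The Slc17a6 call was lost without Lmx1a line replicate 2 or 3 or Nkx2.2 line replicate 1 (highest adjusted p = 0.071), and the Gad1 and Slc32a1 calls were lost in every fit with 1 array left out except without Lmx1a line replicate 3 (highest adjusted p = 0.193 and 0.117). The other 3 probe sets of Slc32a1 had log2 fold changes of 0.32, 0.12 and 0.02, and with the mean of its probe sets it was at -0.53 and not called (adjusted p = 0.0888).

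Barhl1, a homeodomain factor of subthalamic and premammillary neurons, which arise rostral to the dopaminergic neurons, had 1.20, 4.70 and 4.47 in the Lmx1a line, against 0.02, 0.00 and 0.06 in the Nkx2.2 line (3.43 ± 0.75, SE, limma adjusted p = 0.0108). Barhl1 and Slc17a6 were the called members of that list of 8, whose median was 0.93. Uncx, a homeodomain factor, rose by 3.09 ± 0.58 (adjusted p = 0.00481), and Tal1, a basic helix-loop-helix factor of GABAergic neurons, fell by 3.33 ± 0.75 (log2 fold change -3.33, adjusted p = 0.0138). They were the called members of 11 genes of ventral interneurons and the red nucleus, and the Tal1 call was lost without Nkx2.2 line replicate 1 or 2 (highest adjusted p = 0.0673). Tbx20, a T-box factor of visceral motor neurons, changed by -3.57 ± 0.82 (adjusted p = 0.0143), with 0.31, 0.00 and -4.14 in the Lmx1a line, against 1.95, 3.25 and 1.69 in the Nkx2.2 line. Its Lmx1a line replicate 3 stood 4 log2 units below replicates 1 and 2, and the call was lost without Nkx2.2 line replicate 2 (adjusted p = 0.0696). No gene of the lists for somatic motor neurons (10 tested) or dorsal and intermediate interneurons (11 tested) was called.

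Among 23 ionotropic glutamate and nicotinic receptor subunits, 3 rose and 2 fell (median 0.02), where 2.2% of all genes rose and 2.87% fell. Chrnb4 and Chrna3, nicotinic subunits that sit in a gene cluster and form a receptor together, rose by 3.20 ± 0.51 and 2.35 ± 0.38 (SE, limma adjusted p = 0.00176 and 0.00205). Chrnb4 had 0.36, 1.52 and 2.79 in the Lmx1a line, against -1.74, -1.78 and -1.40 in the Nkx2.2 line. Chrna3 had -0.77, 0.04 and 0.17 in the Lmx1a line, against -3.34, -2.47 and -1.80 in the Nkx2.2 line. Both separated the lines without overlap, and Chrna5 of the same cluster rose as well (1.23, adjusted p = 0.0401). The AMPA receptor subunit Gria4 had -0.28, -0.35 and -0.38 in the Lmx1a line, against 4.14, 4.87 and 2.88 in the Nkx2.2 line (-4.30 ± 0.49, adjusted p = 0.000135), and Gria2, another AMPA subunit, changed by -1.63 ± 0.38 (adjusted p = 0.0156). The lines did not overlap for Gria4, while the Gria2 call was lost without Nkx2.2 line replicate 2 (adjusted p = 0.0546).

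Of 31 potassium channel genes, 4 fell and none rose, and arrays of 11 lay lower without overlap, where 2.87% of all genes were called lower and 11.5% lay lower without overlap. Kcnip4, a channel-interacting protein, fell by 2.71 ± 0.52 (log2 fold change -2.71, SE, limma adjusted p = 0.00537), and the A-type channel Kcnd2, to which such proteins bind, by 3.04 ± 0.71 (log2 fold change -3.04, adjusted p = 0.016). Kcnc2, a fast delayed rectifier, and Kcnj3, an inward rectifier, fell by 1.85 and 1.65 (log2 fold changes -1.85 and -1.65). Of 15 GABA-A and glycine receptor subunits, Gabrb1 and Gabra3 fell (-3.68 ± 0.58 and -2.36 ± 0.63). With the mean of all probe sets of a gene, Kcnj3 was at -0.92 and Gabra3 at -1.41 (adjusted p = 0.0908), and neither was called. Of these 6 calls, those of Kcnip4 and Gabrb1 were made with each array left out in turn, and those of Kcnd2, Kcnc2, Kcnj3 and Gabra3 were lost in 1 to 3 such fits.

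Of 35 axon guidance genes, 6 rose and 3 fell, with a median of 0.46, where 2.2% of all genes rose and 2.87% fell. Sema3d, a secreted semaphorin, had 3.60, 3.34 and 2.77 in the Lmx1a line, against -0.05, 0.04 and 1.68 in the Nkx2.2 line (2.68 ± 0.46, SE, limma adjusted p = 0.00288). Efnb2, an ephrin ligand, had 1.09, 1.75 and 1.00 in the Lmx1a line, against -1.78, -1.12 and -0.73 in the Nkx2.2 line (2.49 ± 0.49, adjusted p = 0.00606). Epha5, an ephrin receptor, had -1.45, -1.38 and -1.96 in the Lmx1a line, against 1.08, 1.56 and -0.77 in the Nkx2.2 line (-2.22 ± 0.47, adjusted p = 0.00921). The lines did not overlap in any of them, and the call of Epha5 was lost without Nkx2.2 line replicate 1 (adjusted p = 0.0514). Netrin 1 (Ntn1), an attractant made by the floor plate, was not called (log2 fold change 2.48 ± 1.06, adjusted p = 0.18). Leaving out single arrays gave 3 to 5 higher and 1 to 4 lower guidance genes, and the bioC covariate 2 higher and 0 lower.

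Of 22 cadherins and protocadherins, 4 fell and none rose (median -0.47), where 2.87% of all genes fell. Cdh13, the cadherin that lacks an intracellular part, had -2.96, -2.29 and -3.84 in the Lmx1a line, against 1.40, 1.33 and -0.38 in the Nkx2.2 line (-3.81 ± 0.50, SE, limma adjusted p = 0.00038). Cdh8, a classical type cadherin of the nervous system, changed by -3.75 ± 0.81 (adjusted p = 0.01), and Pcdh20 and Pcdh10, protocadherins, by -2.23 ± 0.44 and -1.83 ± 0.45. The Cdh13 arrays did not overlap and its call was made with each array left out, whereas the Cdh8 call was lost without Nkx2.2 line replicate 1 or 2 (highest adjusted p = 0.0587) and the Pcdh10 call without Lmx1a line replicate 3 or Nkx2.2 line replicate 1 or 2 (highest adjusted p = 0.0848). Of the 6 probe sets of Pcdh10, 3 lay near 0 (-0.13, 0.01 and -0.02), and with the mean of all 6 it was at -0.79 and not called (adjusted p = 0.101).

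Dusp6, Spred1 and Etv4, feedback regulators and a target of FGF signalling, were the 3 of 12 FGF response genes that rose (2.59 ± 0.72, 1.75 ± 0.49 and 1.12 ± 0.33, SE; limma adjusted p = 0.0377, 0.0364 and 0.0443). As background, 2.2% of all genes rose. Dusp6 had 2.31, 1.29 and 1.41 in the Lmx1a line, against -1.43, -2.28 and 0.94 in the Nkx2.2 line. Nkx2.2 line replicate 3 came near the Lmx1a line, and the count of 3 was 0 without Lmx1a line replicate 3 or Nkx2.2 line replicate 1 or 2, 1 without Lmx1a line replicate 1 or 2, and 4 without Nkx2.2 line replicate 3. Of 17 BMP and TGF-beta genes, Bmp7, a ligand, rose by 2.77 ± 0.75 (adjusted p = 0.0339) with Nog, while Fst, an activin inhibitor, and Id4 fell. Over all genes 2.2% rose and 2.87% fell. Id4, an inhibitor of helix-loop-helix factors, had -1.96, -1.90 and -1.59 in the Lmx1a line, against 1.42, 1.5 and 0.76 in the Nkx2.2 line (-3.04 ± 0.26, adjusted p = 1.53e-05), without overlap. Sufu, a hedgehog pathway inhibitor, was the single call among 11 hedgehog genes (1.59 ± 0.36, adjusted p = 0.0149). Its other 2 probe sets had 0.5 and 0.13, and with the mean of its probe sets it was not called (0.74). None of 18 Wnt pathway genes was called. Arrays of 5 hedgehog and 6 Wnt genes lay higher without overlap and none lower, where 8.76% of all genes lay higher. The Bmp7, Fst and Sufu calls were lost in 4, 5 and 2 fits with 1 array left out (highest adjusted p = 0.159, 0.136 and 0.0709). With the mean of all probe sets, Etv4 was at 0.58 (adjusted p = 0.0605) and Fst at -1.30 (adjusted p = 0.146), and neither was called.

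Markers of other cells were examined for the purity of the samples. As background, 2.2% of all genes rose, 2.87% fell, 8.76% lay higher without overlap and 11.5% lower. None of 14 pan-neuronal genes was called (median 0.04). All 11 cell cycle genes had higher means in the Lmx1a line (median 1.04), and for 10 of them the arrays did not overlap, but none was called, with adjusted p between 0.281 and 0.705. Their summed centred signal was 6.12 to 11.83 in the Lmx1a line and -4.90 to 0.52 in the Nkx2.2 line. For the Lmx1a line at day 14 minus the Nkx2.2 line with retinoic acid, their median was -1.07, the opposite sign, and none was called. Among neural progenitor genes, Sox1 and Nkx6-2 fell (-1.96 ± 0.43 and -1.96 ± 0.48, SE; limma adjusted p = 0.012 and 0.0198), 2 of 12 tested, with calls lost without Nkx2.2 line replicate 1 for Sox1 (adjusted p = 0.0519) and without Lmx1a line replicate 1 or Nkx2.2 line replicate 2 for Nkx6-2 (highest adjusted p = 0.0998). The part of dividing cells in the results was not tested.

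Of 9 astroglial genes, Aqp4 and Aldh1l1 fell, where 2.87% of all genes fell. Aqp4, a water channel, had 0.06, -0.11 and -0.19 in the Lmx1a line, against 5.49, 3.41 and 4.42 in the Nkx2.2 line (-4.52 ± 0.44, SE, limma adjusted p = 5.51e-05), and the arrays did not overlap. Of the 9 genes, 4 lay lower without overlap and none higher, where 11.5% of all genes lay lower without overlap. Gfap and S100b, 2 further astroglial genes, had log2 fold changes of 0.02 and 0.06. The summed astroglial signal was -4.37 to -1.21 in the Lmx1a line and -0.60 to 8.59 in the Nkx2.2 line. Of 8 mesenchymal genes, Dcn, decorin, fell by 4.64 ± 0.93 (log2 fold change -4.64, adjusted p = 0.00712) and Twist1 rose by 2.67 ± 0.77 (adjusted p = 0.0441), with summed signals of -8.97 to 7.83 in the Lmx1a line and -2.22 to 12.76 in the Nkx2.2 line. The median of the 8 was -2.1, among the lowest of the lists, and 3 lay lower and 2 higher without overlap. Of 7 oligodendroglial genes Pdgfra fell, with a call lost with any 1 array left out (highest adjusted p = 0.107) or with the mean of its probe sets (-0.94, adjusted p = 0.123), and of 9 endothelial and blood genes Kdr rose. The Aldh1l1, Twist1 and Kdr calls were lost in 5, 5 and 4 fits with 1 array left out (highest adjusted p = 0.175, 0.201 and 0.158). The part of such cells in the other results was not tested.

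Several genes that kept their call had a change over 1.5 times smaller with the mean of all their probe sets. Among the rises these were Csn3 (2.30), Cldn9 (2.29), Nr4a2 (2.11), Chrna3 (1.55) and Spred1 (1.16). Among the falls they were Ptger3 (-3.50), Aqp4 (-2.82), Dcn (-2.28), Gabrb1 (-2.17), Cdh13 (-2.06), Htr1a (-2.05), Kcnd2 (-1.70), Sox1 (-1.25), Syn2 (-1.25) and Aldh1l1 (-1.14).

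The wild-type mean lay between the lines for 289 of the 400 genes that rose and 351 of the 523 that fell, against 8507 of all 18193. It lay above both lines for 44 of the genes that rose and 34 of those that fell, against 4646 of all genes. It lay below both for 67 and 138, against 5040 of all genes. Called genes were chosen for a difference between the lines, which leaves a wider gap for the wild-type mean. Among the 523 genes that fell, the wild-type mean was nearer to the Lmx1a line mean for 360 (68.8%), against 42.8% of all genes. Among the 400 that rose it was nearer to the Lmx1a line for 201 (50.2%). Gch1, Slc6a4 and Maob averaged -1.06, -1.27 and 0.01 in wild type, near the Lmx1a line, and Gata3 lay between the lines (0.21), whereas Shox2 (2.56 in wild type) and Slc32a1 (3.93) lay near the Nkx2.2 line. Of the genes that rose, Kitl (-0.35) and Nr4a2 (-0.42) were low in wild type, and Uncx (2.79) and Efnb2 (1.76) were as high as in the Lmx1a line. Wild type entered the same fit, and these placements carry no test. The bioC controls of wild-type replicates 1 and 2 (-2.211 and -1.814) lay in the range of the Lmx1a line, and that of replicate 3 (0.653) did not. The wild-type labelling controls (-0.982 to -0.271) lay in the range of the Nkx2.2 line. The part of the control signals in these placements was not tested.

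The lines were also set against each other in 6 other arrays, Lmx1a line at day 14 minus Nkx2.2 line at day 10 with SHH and retinoic acid (RA) in place of FGF8. Day and treatment differ there as well as line, and the arrays share the variance estimate but no sample. The control signals differed there in the same direction, with some overlap. The bioC controls were -1.838, -1.268 and 0.338 in the Lmx1a line at day 14, against 0.311 to 0.498 in the Nkx2.2 line with RA. The labelling controls were -1.803 to 0.361, against 0.24 to 2.027. The part of the control signals in the shared signs and calls was not tested. In that comparison 572 genes were higher (3.14%) and 490 lower (2.69%), 5.84% of genes in all. Of the 400 genes that rose at FGF8 day 10, 358 had the same sign (89.5%), against 69.4% of all genes, and 96 were called higher and 1 lower. Of the 523 that fell, 436 had the same sign (83.4%), 133 were called lower and 5 higher. The shared calls made up 24.0% of the 400 and 16.8% of the 572, and 25.4% of the 523 and 27.1% of the 490.

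Lmx1a changed by 10.99, Dmrta2 by 8.02, Nr4a2 by 6.61, Th by 5.83 and C1ql1 by 5.51 in the other arrays, all called. Otx2, not called at FGF8 day 10, changed by 6.33 (limma adjusted p = 0.00289). Slc6a3 changed by 4.33 (adjusted p = 8.02e-07), with a mean of 4.31 at day 14, against 0.05 in the Lmx1a line at day 10. Maob (-6.37), Shox2 (-6.31), Ptger3 (-5.94), Penk (-5.87) and Gchfr (-5.26) fell there too. Of the 12 largest falls, 11 were called the same way, and Tph2 was not (-3.23, adjusted p = 0.0655). Of the 12 largest rises, 5 were.

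Kitl and Csn3 rose at FGF8 day 10 and were not called in the other arrays. Kitl averaged 3.94 in the Lmx1a line at day 14 and 3.85 in the Nkx2.2 line with RA, a log2 fold change of 0.09 (limma adjusted p = 1.0). Csn3 averaged -0.02 in the Lmx1a line at day 14 and -0.03 in the Nkx2.2 line with RA. Gad1 changed by -2.81 at FGF8 day 10 and by 4.34 in the other arrays (adjusted p = 0.00409), with means of 3.44 in the Lmx1a line at day 14 and -0.91 in the Nkx2.2 line with RA. Vip likewise changed by -2.66 and by 1.40 (adjusted p = 0.0341). The difference between the comparisons was not tested for these genes.

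**Figure D5:**
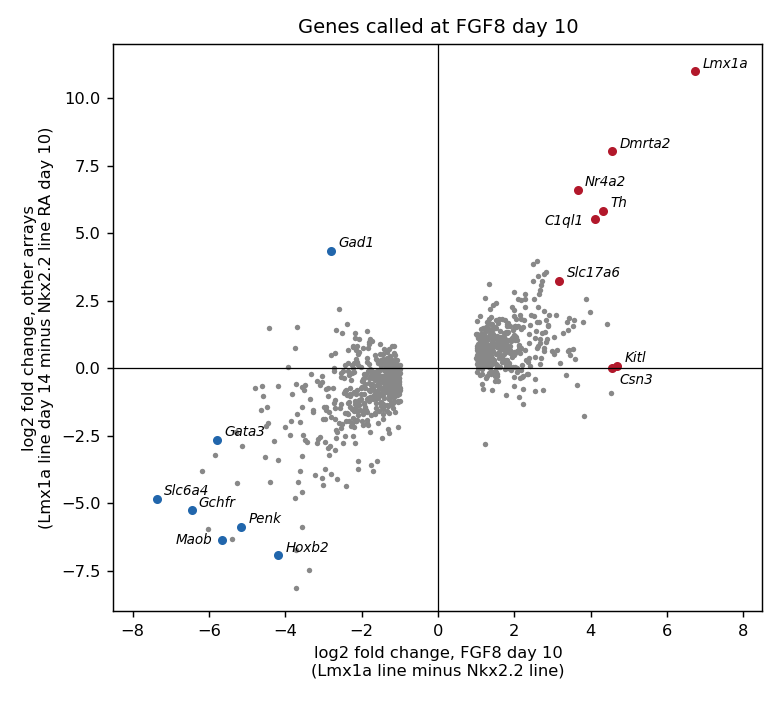
Log2 fold changes of the 923 genes called at FGF8 day 10, with that comparison (Lmx1a line minus Nkx2.2 line) on the x axis and Lmx1a line day 14 minus Nkx2.2 line RA day 10 on the y axis. Most points lie in the lower left and upper right, Kitl and Csn3 lie at 0 on the y axis, and Gad1 has opposite signs.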

How the data were processed

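Purified post-mitotic neurons were profiled on Affymetrix mouse arrays from biotin-labelled cRNA. The deposited values are log2 signals made with GCRMA, per the submitters' processing notes, with no version stated there. In the deposited log2 table every probe set stands relative to its own median: none has more than 13 values above 0 or 13 below, which fits 27 arrays, of which 21 were used and 6 were not analysed here. Absolute signal and background are therefore unknown, and the number of arrays limits the precision.

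Of 45037 non-control probe sets, 34945 had 1 gene in the platform annotation, 932 several and 9160 none; the 18193 genes were each read through their most variable probe set. A limma fit (limma 3.58.1, R 4.3.3) with 7 group means over 21 arrays (14 residual degrees of freedom) gave fold changes and Benjamini-Hochberg adjusted p over 18193 genes. Replicates are biological per the titles, whose wording does not say what was separate. The p-values rest on 1 variance per gene, pooled over the replicates of all 7 groups. That variance can be smaller than the spread of the 6 arrays compared. Nr4a2 had an SD of 2.394 in the Nkx2.2 line at FGF8 day 10, against 0.16 in somatic motor neurons. Its limma adjusted p was 0.00922, but 0.22 with only the 6 arrays, a fit with 4 residual degrees of freedom.

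Named genes were the markers and line genes, the 12 largest rises and 12 largest falls among called genes without overlap, called members of the identity lists and, of the other lists, at most 4 called members each. Chrna5, Gfap, S100b and Kit were named after their values were seen. The comparison and the lists were chosen with earlier results of these data known. Same-numbered arrays of the 2 groups correlated at 0.302, 0.0945 and 0.247 after group means were removed, and 63 same-number pairs averaged 0.00603, so the numbers were not treated as pairs. In simulated data with 200 of 18193 genes changed, the test recovered 49.3%, 70%, 92.7% and 98.7% of changes of 1.5, 2, 3 and 5 log2 units, with 1.7% of calls false. The simulated noise was independent between genes and arrays, without array or control signal differences. The changed genes were drawn from those with a spread above the median. These shares therefore do not give the false share of the real calls, which depended on single arrays and control signals.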

Additional observations from a re-analysis of the deposited data

How the results depend on the processing

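Leaving out 1 array at a time gave 166 to 750 higher and 293 to 636 lower genes at FGF8 day 10, and 232 to 989 higher and 345 to 585 lower genes in the comparison of Lmx1a line day 14 with Nkx2.2 line RA day 10. With only the 6 arrays compared, 36 genes were higher and 88 lower at FGF8 day 10 and 239 and 296 in the other comparison. Array quality weights gave 1794 and 1209, and 1276 and 881. A threshold of 2 log2 units gave 122 and 186, and 135 and 233. The bioC split as a covariate gave 142 and 348, and 254 higher in the other comparison. The labelling controls as a covariate, added after seeing the data, gave 4 and 13, and 138 and 257. The other settings kept all 4 counts within 1.5 times, and apart from the smaller fits and the threshold the cause was not tested. The replicate number as a block gave 432 higher and 523 lower genes, and 574 and 490 in the other comparison, and 83 of the 87 named calls were made with it.

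Of the 87 named calls, 42 were made with each array left out in turn and 37 of these also with the bioC covariate, 20 with only the 6 arrays and 2 (Aqp4 and Maob) with the labelling covariate. With the labelling covariate 5 signs turned: Alk 0.133, Dusp6 -0.278, Hoxb3 0.008, Kdr -0.160 and Spred1 -0.349, with limma adjusted p between 0.861 and 0.999. Aldh1l1 was 0.029 when probe sets with a suffix were left out. The bioC and labelling control signals cannot be told apart from the line within the 6 arrays. Centring hides which genes lie above background, and 3 arrays per line limit all calls.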

Other observations

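Probe sets with no gene or with several genes were left out of the comparison. Among these 10092 probe sets, 31 were higher and 81 lower in the Lmx1a line by the same limma thresholds.

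Met, the receptor of hepatocyte growth factor, had 1.74, 2.13 and -0.01 in the Lmx1a line, against -1.26, -2.47 and 0.07 in the Nkx2.2 line (log2 fold change 2.51 ± 0.58, SE, limma adjusted p = 0.015). The lines overlapped through Lmx1a line replicate 3 and Nkx2.2 line replicate 3, and the call was lost without Lmx1a line replicate 2 or Nkx2.2 line replicate 1 or 2 (highest adjusted p = 0.0735). Alk, another receptor tyrosine kinase, had -0.75, -0.24 and -0.88 in the Lmx1a line, against 1.18, 1.30 and 0.00 in the Nkx2.2 line (-1.45 ± 0.33, adjusted p = 0.0149), and its call was lost without Nkx2.2 line replicate 1 or 2 (highest adjusted p = 0.075).

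Slc6a9, the glial and glutamatergic glycine transporter, rose by 1.41 ± 0.26 (SE, limma adjusted p = 0.00416), with 0.87, 1.52 and 0.81 in the Lmx1a line, against -0.15, -0.85 and -0.01 in the Nkx2.2 line. Syn2, a synapsin of synaptic vesicles, had -2.63, -2.23 and -3.10 in the Lmx1a line, against 0.80, 0.03 and -0.11 in the Nkx2.2 line (-2.89 ± 0.53, adjusted p = 0.0044), the only called gene of 21 synaptic vesicle genes, where 5.07% of all genes were called. Both calls were made with each array left out in turn. With the mean of all probe sets Slc6a9 was at 0.82 and not called, its second probe set being at 0.23 (adjusted p = 0.528 in a fit of all probe sets), and Syn2 was at -1.25.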
